A study of Mus musculus with 4 samples.

Results

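The cells described here are CD8 T cells of the mouse liver, chosen under the name effector or exhausted. That name does not describe most of the exercised cells, as given below. The choice was made cell by cell from unique molecular identifiers (UMIs), each of which stands for 1 captured RNA molecule. A cell was selected if it held at least 1 UMI of the CD3 genes Cd3d, Cd3e and Cd3g together, at least 1 UMI of the CD8 genes Cd8a and Cd8b1 together, and at least 2 UMIs of Ccl5, Gzmk, Pdcd1 and Tox together. It also had to hold at most 1 UMI of the division genes Mki67 and Top2a together, and 0 UMIs of Cd4, Foxp3, Cd79a and C1qa. The rule chose 1242 of the 25161 cells that passed the quality filter, which asked for at least 200 genes and at most 10% of UMIs from mitochondrial genes. The libraries held 28525 cell barcodes in all. The selected cells numbered 279, 483, 310 and 170 in the libraries Sed 1, Sed 2, Ex 1 and Ex 2, which held 7261, 7603, 6056 and 4241 cells after the filter. Measured values chose these cells, so the 15 genes of the rule are given below as levels and were left out of the tests across genes.

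The study asked how exercise before surgery bears on liver metastasis of colorectal cancer that surgical stress promotes, and on the immune cells of the liver. All 4 libraries came from 8-week-old male mice that carried tumours of MC38, a mouse colon carcinoma line. Livers were taken 3 weeks after the tumour cells were injected, hepatocytes were removed by centrifugation, and immune cells were enriched on beads that bind CD45. The 2 groups were sedentary mice (Sed 1 and Sed 2) and mice exercised before surgery (Ex 1 and Ex 2). The labels do not say that each library is a separate animal or whether animals were pooled, so a p-value measures the spread between these libraries, which may be technical.

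CD8 T cells recognise peptides on MHC class I and kill the presenting cell through cytotoxic granules, which hold granzymes and the pore-forming protein perforin. After long exposure to antigen, as in tumours, they take up inhibitory receptors such as PD-1 (Pdcd1), TIM-3 (Havcr2) and LAG-3 under the transcription factor TOX, a state called exhaustion. A smaller pool keeps TCF-1 (Tcf7) and with it the capacity to renew and to recirculate through lymphoid tissue.

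The selected cells held between 1162051 and 2017266 UMIs per library. The median cell had 4495 UMIs in Sed 1, 3113 in Sed 2, 6024 in Ex 1 and 6318 in Ex 2, so the exercised cells were the deeper ones. Mitochondrial genes gave a median of 2.73%, 2.62%, 4.50% and 4.82% of a selected cell's UMIs in the same order. In the whole data, 83 barcode sequences occurred in more than 1 library. Barcodes of 6 selected cells did so, and 0 were shared between selected cells of different libraries. RNA of other cells was present in the summed cells of every library. Monocyte and neutrophil markers summed to 11010, 6501, 3814 and 2234 CPM (UMIs of a gene per 1000000 UMIs of the summed cells) in Sed 1, Sed 2, Ex 1 and Ex 2, with 9 of 9 markers detected in each. The 4 haemoglobin genes gave 6141 UMIs in Ex 1, of which 98.9% lay in 5 cells, and between 7 and 47 UMIs elsewhere. Igkc, an antibody light chain, gave 1989 UMIs in Sed 2, of which 96.9% lay in 5 cells. Markers of γδ T cells summed to 195, 224, 73.5 and 52.5 CPM, with Il17a at 0 in every library. The part of these cells in the results below was not tested, except where a value without them is given.

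The genes that chose the cells had different levels in the 4 libraries. Ccl5, a chemokine of effector and memory CD8 T cells, stood at 22930 CPM in Sed 1, 23310 in Sed 2, 5383 in Ex 1 and 7232 in Ex 2. Gzmk, a granzyme of early effector cells, stood at 243, 285, 23.3 and 14.6 CPM in the same order. Pdcd1 stood at 121, 129, 7.60 and 20.7 CPM, and Tox at 260, 254, 25.4 and 68.8 CPM. Both sedentary libraries were above both exercised ones for all 4 genes. Cd8a was at 438, 612, 368 and 284 CPM and Cd8b1 at 760, 926, 496 and 570 CPM, so both CD8 chains were present throughout. The route into the selection therefore differed between the groups. In Sed 1 and Sed 2, 23.3% and 20.1% of the selected cells held 0 UMIs of Gzmk, Pdcd1 and Tox and passed on Ccl5 alone, against 78.7% in Ex 1 and 71.2% in Ex 2. Conversely, 187, 304, 27 and 16 cells reached 2 UMIs without Ccl5.

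Of the 4 markers given for these cells, Cd8a, Cd8b1 and Ccl5 were found throughout, and Gzmk was scarce in the exercised cells. After each cell was thinned to 1500 UMIs, Ccl5 was detected in 97.0%, 99.3%, 91.9% and 97.1% of selected cells, against 1.81% to 4.86% of B cells, which should lack it. Gzmk was detected in 31.0%, 36.7%, 5.19% and 4.71% of selected cells, against at most 0.187% of B cells. The name effector or exhausted describes the sedentary cells. Most exercised cells held no UMI of Gzmk, Pdcd1 or Tox, and their Gzmb was low and their Tcf7 high, as given below. They are called the selected CD8 T cells here for that reason.

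At the threshold itself, 25 selected cells had exactly 2 UMIs of the 4 genes and 67 CD8 T cells just missed with 1 UMI. Gzma stood at 146 CPM in the former and 15.4 in the latter, Gzmb at 78.4 and 51.3, Tcf7 at 282 and 388, and Ccr7 at 157 and 252. By library, in the same order as before, the former numbered 4, 1, 14 and 6 cells and the latter 16, 13, 18 and 20. The cells below the threshold, 300 in all (109, 29, 81 and 81 per library), serve as the comparison population further on.

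Selected cells made up 71.9%, 94.3%, 79.3% and 67.7% of the CD8 T cells in Sed 1, Sed 2, Ex 1 and Ex 2. Exercised and sedentary libraries overlapped, and the means differed by -9.62 percentage points (exact two-sided permutation test, p = 0.667, n = 2 against 2). Without Sed 2 the difference was 1.595 points, the opposite sign. Of all T cells the share was 28.1%, 39.3%, 20.4% and 20.1%, lower in both exercised libraries, a difference of -13.45 points with an exact permutation p of 0.333 (n = 2 against 2), which is the smallest such a design allows. Of all cells it was 3.84%, 6.35%, 5.12% and 4.01%, which overlapped. The share of T cells kept its order after every cell was thinned to 1500 UMIs before the rule, at 31.8%, 45.6%, 15.3% and 15.1%. With the same thinning, selected cells made up 73.6%, 94.6%, 62.5% and 58.9% of the CD8 T cells. Of all cells they made up 4.01%, 7.29%, 3.60% and 2.84%. At this equal depth both shares were lower in both exercised libraries, without overlap (exact permutation p = 0.333 each, n = 2 against 2).

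The question for the selected cells was how their transcripts differed between exercised and sedentary mice. In the exercised cells 7 of 13 cytotoxic granule genes, 2 of 6 chemokines and 5 of 9 checkpoint receptors fell, while 1 checkpoint receptor and 5 of 15 genes of naive and stem-like T cells rose. Counts were summed over the selected cells of each library and compared with edgeR's quasi-likelihood test, with p-values adjusted by Benjamini-Hochberg over all 8676 genes tested. A gene is called here at an adjusted p under 0.05, and log2 changes are exercised against sedentary with their standard error. In all, 617 genes passed, 7.11% of those tested, of which 238 rose (2.74%) and 379 fell (4.37%). In 51.5% of all tested genes the 2 groups of libraries did not overlap, with the exercised libraries higher in 21.1% and lower in 30.4%. Of the called genes, 49 that rose and 116 that fell were also called without each of the 4 libraries in turn.

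Among the granule and cytotoxic genes, 7 of 13 tested fell and 0 rose, with a median log2 change of -1.16 against -0.01 over all genes. Gzma (granzyme A, chr13:113093825-113100981, minus strand) stood at 9020 CPM in Sed 1, 7173 in Sed 2, 213 in Ex 1 and 306 in Ex 2. The groups lay far apart, and the log2 change was -4.90 ± 0.30 (edgeR adjusted p = 1.46e-07). Prf1, which encodes perforin, stood at 402, 363, 72.0 and 120 CPM. It was lower in both exercised libraries, with a change of -1.94 ± 0.27 (edgeR adjusted p = 0.000432). Gzmb, granzyme B, stood at 1673 and 1670 CPM in the sedentary libraries and 353 and 127 in the exercised ones. Its change of -2.72 ± 0.50 had an edgeR adjusted p of 0.0354, which rose to 0.555 without Sed 1, to 0.615 without Sed 2 and to 0.125 with likely doublets removed. Nkg7, a granule membrane protein needed for exocytosis, stood at 2435, 2862, 1255 and 991 CPM. Its fall of 1.16 on the log2 scale (adjusted p = 0.0068, edgeR) missed the threshold without Ex 1 (0.0896) or Ex 2 (0.25). The granzyme inhibitors Serpinb6b (292, 207, 54.2 and 69.7 CPM) and Serpinb9 (134, 110, 42.1 and 49.0 CPM) also fell, as did the death ligand Fasl, the last not without Sed 2 or Ex 1 (0.0695 and 0.141). Gzma, Prf1, Serpinb6b and Serpinb9 were called without each library in turn. Ctsw, a cathepsin of cytotoxic cells, stood at 329, 292, 327 and 265 CPM, with overlapping groups. After thinning to 1500 UMIs, 75.6% and 80.1% of sedentary and 23.7% and 14.7% of exercised selected cells held a Gzmb UMI, against 0.329% to 1.31% of B cells.

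**Figure D1:**
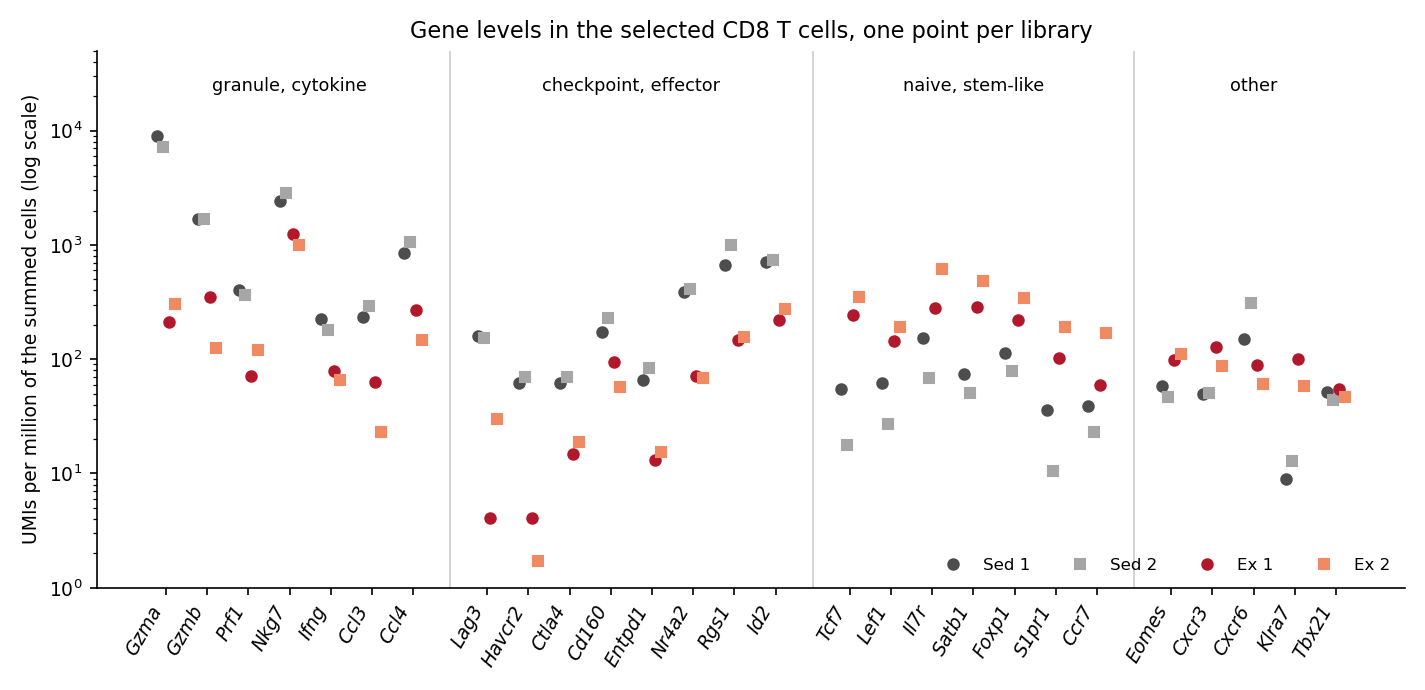
Level of 27 genes in the summed selected CD8 T cells, in CPM on a log axis, with 1 point for each library. Granule and checkpoint genes sit higher in the 2 sedentary libraries and naive or stem-like genes higher in the 2 exercised ones, while Tbx21 overlaps.

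The chemokine and cytokine genes included falls of secreted effector products. Ifng, the cytokine that activates macrophages, stood at 223 and 180 CPM in Sed 1 and Sed 2 and at 78.6 and 65.4 in Ex 1 and Ex 2, a change of -1.41 ± 0.24 (edgeR adjusted p = 0.0019). Ccl4 stood at 856, 1060, 272 and 146 CPM and Ccl3 at 232, 294, 62.9 and 23.2 CPM, and both fell (-2.11 and -2.48, edgeR adjusted p = 0.000511 and 0.00956). Both belong to one chromosome 11 chemokine cluster with Ccl5 (Ccl3 at chr11:83647844-83649355, Ccl4 at chr11:83662584-83664683). Csf1, the macrophage growth factor, stood at 47.2, 50.6, 3.55 and 6.02 CPM and fell by 3.33 on the log2 scale. In all, 2 of 6 chemokines fell and 0 rose, and of 6 cytokines 2 fell and Ltb rose. All 4 falls were called without each library in turn, whereas Ltb was not. Xcl1, a chemokine that draws cross-presenting dendritic cells, stood at 6.15, 65.9, 355 and 112 CPM, higher in both exercised libraries without passing the test (2.77, edgeR adjusted p = 0.465).

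Of 9 checkpoint receptors tested, 5 fell and 1 rose, with a median log2 change of -1.92. Havcr2 (TIM-3) stood at 62.2, 69.9, 4.06 and 1.72 CPM, a change of -4.28 ± 0.39 (edgeR adjusted p = 1.25e-05). Ctla4 stood at 62.2, 70.4, 14.7 and 18.9 CPM, a change of -1.92 ± 0.29 (edgeR adjusted p = 0.000668). The ectoenzymes Entpd1 (CD39, 65.6, 83.3, 13.2 and 15.5 CPM) and Cd38 (79.3, 123, 25.4 and 24.1 CPM) fell (-2.31 and -1.95). Each of these 4 was called without each library in turn, and in each the sedentary libraries were both above the exercised ones. Cd160 fell by 1.29, with an edgeR adjusted p of 0.00656 that became 0.0558 without Ex 2. Lag3 stood at 159 and 154 CPM against 4.06 and 30.1, and its change of -3.29 ± 0.94 did not pass over all 4 libraries (edgeR adjusted p = 0.211). It passed when any 1 library was left out, at -2.29 to -5.18. Tigit was scarce, with 21 UMIs in the sedentary and 2 in the exercised cells, a ratio of 9.46 (95% counting interval 2.31 to 83.2). Btla rose, from 4.79 and 12.9 to 27.4 and 20.6 CPM, but not without Sed 1, Ex 1 or Ex 2 (adjusted p = 0.102, 0.243 and 0.0815 with edgeR).

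Transcription factors moved in both directions. Nr4a2, a nuclear receptor of chronically stimulated T cells, stood at 386, 413, 71.0 and 68.0 CPM, a change of -2.44 ± 0.23 (edgeR adjusted p = 1.29e-05). Nfil3 stood at 82.1, 108, 16.2 and 19.8 CPM, Bhlhe40 at 189, 246, 60.3 and 68.0 CPM and Id2, which supports effector differentiation, at 714, 744, 220 and 276 CPM. These 3 fell (-2.34, -1.69 and -1.48), with no overlap between the groups, and all 4 genes were called without each library in turn. Prdm1 (Blimp-1) fell too, by 1.23, but missed the threshold without Sed 2, Ex 1 or Ex 2 (0.0887, 0.0956 and 0.15). Eomes, a T-box factor of memory and exhausted cells, rose from 58.1 and 46.6 to 97.8 and 110 CPM (1.06, edgeR adjusted p = 0.0158), except without Sed 2 (0.175) or Ex 2 (0.0768). Tbx21 (T-bet) stood at 51.3, 43.6, 54.8 and 46.5 CPM, with overlapping groups. By list, 3 of 11 exhaustion factors fell and 1 rose, and 3 of 9 effector factors fell and 0 rose.

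Of 15 naive and stem-like genes tested, 5 rose and 0 fell, with a median log2 change of 1.94. Their summed level was 737 and 527 CPM in Sed 1 and Sed 2 and 2053 and 2869 CPM in Ex 1 and Ex 2. Satb1, a chromatin organiser of immature and naive T cells, stood at 74.5, 51.1, 289 and 482 CPM, a change of 2.69 ± 0.32 (edgeR adjusted p = 0.00056). Foxp1, which maintains quiescence, stood at 113, 78.8, 218 and 341 CPM and rose by 1.61. Cxcr5, a follicle homing receptor, was called on 45 UMIs in the exercised against 1 in the sedentary cells, a ratio of 50.0 (95% counting interval 8.52 to 2020). Satb1, Foxp1 and Cxcr5 were called without each library in turn. Lef1 rose by 2.0 (61.5, 27.3, 144 and 193 CPM) but not without Ex 1 (0.279) or Ex 2 (0.434). Tcf7 itself stood at 54.7, 17.9, 243 and 348 CPM, and both exercised libraries were above both sedentary ones. Its change of 3.11 ± 0.67 did not pass over all 4 libraries (edgeR adjusted p = 0.105), but did with DESeq2 (adjusted p = 0.0124) and with cells thinned to 1500 UMIs before the rule (3.60, edgeR adjusted p = 4.2e-09). Tcf7 stayed uncalled in 11 of 20 alternatives, among them all CD8 T cells without a threshold (1.90, edgeR adjusted p = 0.382). Il7r (154, 68.9, 280 and 620 CPM), Slamf6 (28.7, 9.42, 38.0 and 80.9 CPM) and Ccr7 (39.0, 23.3, 59.3 and 170 CPM) also lay higher in both exercised libraries and did not pass (0.266, 0.283 and 0.258).

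Counted per cell, the balance of Gzmb and Tcf7 differed between the groups. After thinning to 1500 UMIs, cells with a UMI of Gzmb and none of Tcf7 made up 74.2% and 79.7% of the sedentary selected cells (271 and 433 cells deep enough), against 19.5% and 12.9% of the exercised ones (308 and 170 cells). Cells with Tcf7 and no Gzmb made up 4.80% and 1.62% against 26.0% and 40.0%. Both UMIs were seen together in 0.462% to 4.22% of cells. The remaining cells, 19.6%, 18.2%, 50.3% and 45.3%, had neither at this depth, which does not show that they lack either RNA. The sedentary and exercised libraries did not overlap in either single class.

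**Figure D2:**
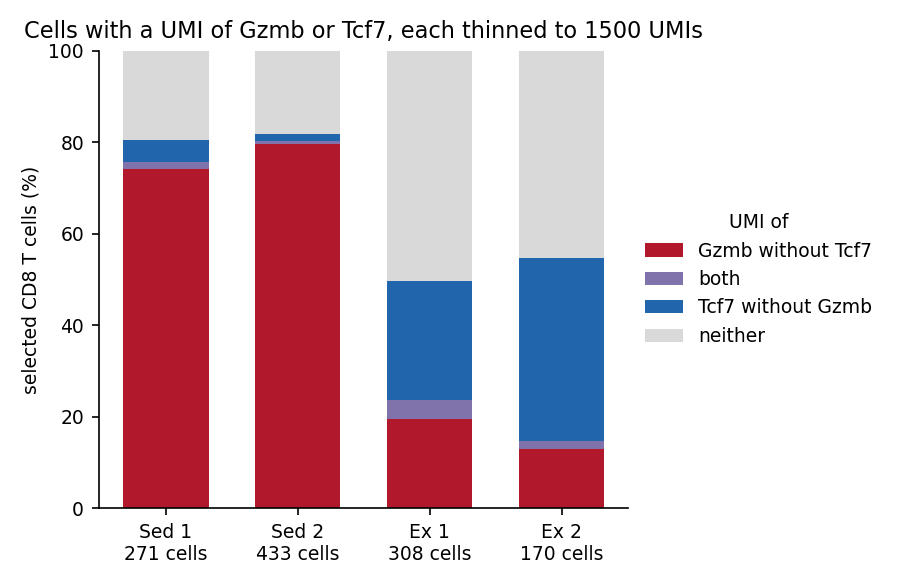
Share of selected CD8 T cells in each library, in percent, that held a UMI of Gzmb, of Tcf7, of both or of neither after each cell was thinned to 1500 UMIs. Cells with Gzmb alone fill 74.2% and 79.7% of the sedentary bars and 19.5% and 12.9% of the exercised bars.

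Receptors for homing and residency changed in part. Of 19 chemokine and homing receptors, 4 rose and 1 fell. Itgb1, the β1 integrin chain, rose from 63.6 and 92.7 to 162 and 206 CPM (1.31, edgeR adjusted p = 0.0032) and was called without each library in turn. Cxcr3, the receptor for interferon-induced chemokines, rose from 49.2 and 50.6 to 129 and 86.9 CPM (1.2), except without Ex 1 (0.0967). Cxcr6, which retains T cells in liver sinusoids, fell from 149 and 307 to 89.2 and 61.1 CPM (-1.49), except without Ex 1 (0.0896) or Ex 2 (0.189). Of 10 residency genes, 4 fell and 1 rose. Rgs1, which dampens chemokine receptor signals and marks resident T cells, stood at 667, 999, 147 and 156 CPM (-2.37 ± 0.24, edgeR adjusted p = 2.56e-05). S1pr1, the receptor that carries T cells out of tissue, stood at 36.2, 10.4, 102 and 192 CPM and did not pass (2.75, edgeR adjusted p = 0.204). Itgae (CD103) stood at 6.15, 27.3, 3.55 and 4.30 CPM, lower in both exercised libraries, and did not pass (edgeR adjusted p = 0.10).

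Signalling and receptor families showed few further calls. Of 13 costimulatory genes, 3 fell and 1 rose. Tnfrsf9 (4-1BB), which marks recent activation, stood at 85.5, 108, 20.3 and 19.8 CPM (-2.19, edgeR adjusted p = 0.000129). Tnfsf8 (CD30 ligand) stood at 17.8, 9.42, 53.7 and 79.2 CPM (2.38, edgeR adjusted p = 0.00112). Cish, a feedback inhibitor of cytokine and T cell receptor signals, fell from 98.5 and 139 to 35.5 and 13.8 CPM, and Sh2d2a, a T cell adaptor, from 442 and 418 to 151 and 155 CPM. These 4 were called without each library in turn. Among 11 NK lectin-like receptors, Klra7 rose, from 8.89 and 12.9 to 101 and 58.5 CPM (2.95, edgeR adjusted p = 9.56e-05), and 3 fell, among them Klrc1 (194, 189, 65.4 and 111 CPM) and Klre1 (195, 296, 130 and 97.2 CPM), of which 0 were called without each library in turn. Klra6 lies in the same region of chromosome 6 as Klra7 (chr6:130013033-130026954 and chr6:130218605-130233322) and rose as well (0.68, 4.46, 47.6 and 26.7 CPM). The Klra genes are near-identical copies, so reads may be split between them.

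Interferon-stimulated and metabolic genes mostly did not pass. Of 49 interferon-stimulated genes, Ifi27l2a alone fell and 0 rose. It stood at 2677, 2149, 546 and 271 CPM, and its fall of 2.49 missed the threshold without Sed 2 (edgeR adjusted p = 0.174). Irf7 (163, 174, 115 and 62.8 CPM) was lower in both exercised libraries without passing (edgeR adjusted p = 0.0802). Of 16 glycolysis genes 0 passed, and of 72 nuclear genes of oxidative phosphorylation 1 fell. Of 13 mitochondrially encoded genes, 8 rose and 0 fell, with a median log2 change of 1.08, and 4 of these were called without each library in turn. Their rise goes with the higher mitochondrial share of UMIs in the exercised cells given above, and under a stricter cell filter (500 genes, 5% mitochondrial UMIs), mt-Nd2, mt-Nd3 and mt-Nd4l passed and the other 5 did not (0.0545 to 0.118). Of 20 cell cycle genes, 3 fell, 0 of which were called without each library in turn, and the rule allowed at most 1 UMI of Mki67 and Top2a together.

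**Figure D3:**
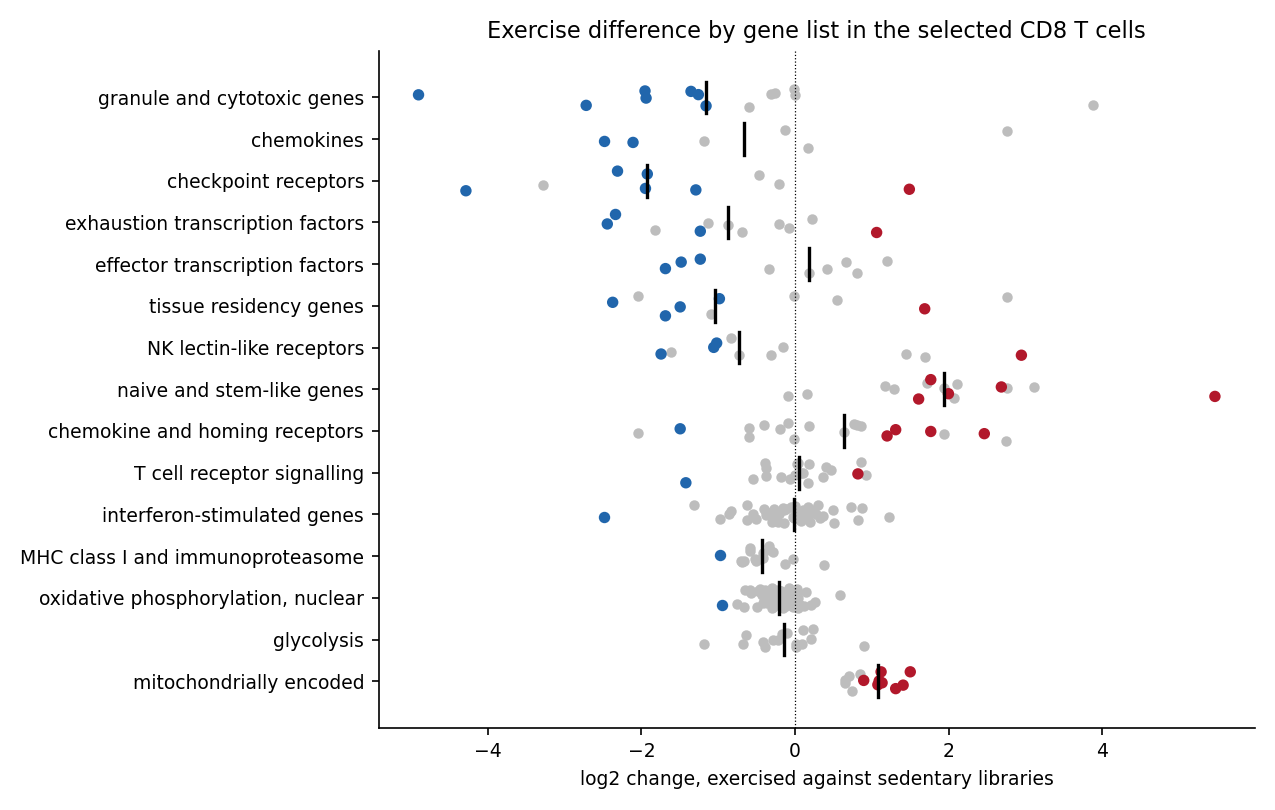
Log2 change of each tested gene in 15 gene lists, exercised against sedentary libraries, in the selected CD8 T cells. Blue points fell and red points rose at an adjusted p under 0.05, grey points did not pass, and the black bar is the list's median, lowest for checkpoint receptors at -1.92 and highest for naive and stem-like genes at 1.94.

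The largest falls that the naming rule given below picked outside those lists were of several kinds. Chil3 and Wfdc21, which that rule did not pick, fell by more than most of them and are given in the next paragraph. Adgrg1 (GPR56), an adhesion receptor of cytotoxic lymphocytes, gave 136 UMIs in the sedentary and 3 in the exercised cells, a ratio of 40.8 (95% counting interval 13.7 to 200). AA467197 and the unnamed gene AC163354.1 fell (-4.36 and -4.92), the latter from 248 and 245 to 11.2 and 2.58 CPM. Serpinb9b, Rapsn, Ildr1 and Filip1 fell (-4.08, -3.66, -3.51 and -3.34), and so did Areg, an epidermal growth factor receptor ligand (-3.78). Pf4 of platelets and Fabp4 of endothelial and fat cells fell (-3.52 and -3.39), but neither was called without each library in turn. The largest rises included Cd163l1, a scavenger receptor of γδ T cells, with 0 UMIs in the sedentary and 64 in the exercised cells, at least 23.7-fold higher against a floor of 3 UMIs over the sedentary group. Ifngas1, a long RNA beside Ifng, gave 2 and 78 UMIs, a ratio of 43.3 (11.6 to 364). Yes1, Fgf13, F2rl1, Tdrp, Tnfrsf26 and St6gal1 rose by 4.54, 3.67, 3.62, 3.62, 3.01 and 2.99, F2rl1 not without Ex 1 (0.054) or Ex 2 (0.0513) and Tnfrsf26 not without Ex 2 (0.174). Gpr183, an oxysterol receptor that positions lymphocytes, stood at 25.3, 16.4, 105 and 170 CPM (2.80, edgeR adjusted p = 0.000252).

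Of the 9 listed monocyte and neutrophil genes, 0 passed for exercise in the selected cells. A few called genes that are known from such cells were also called in the CD8 T cells below the threshold, and the examples here were chosen for that. Chil3, a monocyte and neutrophil lectin, stood at 667, 1042, 29.4 and 38.7 CPM in the selected cells (-4.57, edgeR adjusted p = 1.46e-07) and fell by 3.24 below the threshold. Wfdc21, a neutrophil gene, fell by 4.99 in the selected cells and by 5.24 below the threshold. Below the threshold only 13 of 4743 genes passed (0.274%), 2 higher (0.0422%) and 11 lower (0.232%), and the 11 include Lcn2, Mmp8, Cd14 and Anxa1. S100a8 stood at 3460, 1239, 291 and 79.2 CPM in the selected cells and did not pass (edgeR adjusted p = 0.295). Without all genes of the lists of other cells, 633 of 8634 genes passed. Klrb1c (NK1.1) was found in 28.0%, 3.93%, 9.03% and 5.88% of selected cells, and Tcrg-C2, a γ chain constant gene, fell from 176 and 182 to 31.9 and 20.6 CPM. Without the cells that held a UMI of Trdc, Ncr1, Klrb1c or Zbtb16, 591 genes passed, Gzma changed by -5.28 and Gzmb by -2.91.

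Since the route into the selection differed between the groups, the exercise comparison was repeated within routes. These splits were chosen after seeing the data. In the cells that reached 2 UMIs without Ccl5 (27 and 16 exercised cells), 82 of 5682 genes passed, 59 of them also among the 617. Tcf7 stood there at 7.16, 7.21, 219 and 230 CPM and rose by 4.86 (edgeR adjusted p = 1.82e-06), whereas Gzma stood at 12010, 8290, 537 and 1431 CPM and did not pass (-3.47, edgeR adjusted p = 0.162). In the selected cells with 0 UMIs of Gzmk, Pdcd1 and Tox, 24 of 5711 genes passed, all lower in the exercised libraries. Gzma was among them, at 1821, 3242, 183 and 179 CPM (-3.73, edgeR adjusted p = 0.000223), and so was Lag3 (-4.25, 0.00375). Most other effector genes named above did not pass in those cells. These were Gzmb, Prf1, Nkg7, Ifng, Ccl3 and Ccl4 (edgeR adjusted p = 0.444, 0.471, 0.784, 0.355, 0.404 and 0.604). Nr4a2, Rgs1 and Id2 did not pass either (0.565, 0.352 and 0.248). Nkg7 (1108, 1912, 1251 and 915 CPM) and Ccl4 (185.5, 624.5, 208.4 and 92.72 CPM) overlapped between the groups. Tcf7 did not pass in those cells, at 183, 58.4, 249 and 384 CPM (edgeR adjusted p = 0.524). With no threshold at all, over all 1542 CD8 T cells, 222 of 9043 genes passed, 218 of them among the 617. Gzma changed by -5.00, Havcr2 by -4.15, Nr4a2 by -2.45 and Prf1 by -1.84 there, and each passed. Satb1 (2.10, edgeR adjusted p = 0.0888) did not pass over all CD8 T cells.

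The next comparison set the exercise difference in the selected cells against that in the CD8 T cells below the threshold, as an interaction term over the same 4 libraries. The rule sets the contrast between these cells, and the 2 groups passed it differently. The median selected cell held 114, 89, 26 and 42.5 UMIs of Ccl5, Gzmk, Pdcd1 and Tox in Sed 1, Sed 2, Ex 1 and Ex 2. The interaction carries this difference too, so its p-values cannot separate exercise from the choice of cells. None of the naive and stem-like genes was among the 13 genes called for exercise below the threshold. Tcf7 stood there at 349, 295, 376 and 433 CPM, so the exercised selected cells (243 and 348) were close to their own cells below the threshold and the sedentary ones (54.7 and 17.9) far under theirs. The interaction, the exercise change in selected cells minus that below the threshold, was 2.79 ± 0.29 for Tcf7 (edgeR adjusted p = 4.24e-05). Il7r (635, 582, 296 and 655 CPM below) had an interaction of 2.49 ± 0.24 (edgeR adjusted p = 1.65e-05), and Slamf6 (191, 136, 67.3 and 158 CPM below) of 2.25. Klf2, which drives S1pr1, stood at 1115, 646, 494 and 1050 CPM below and had an interaction of 1.53 (edgeR adjusted p = 8.47e-05). In the other direction, Nkg7 (442, 622, 614 and 524 CPM below) had an interaction of -1.28 ± 0.14 (edgeR adjusted p = 4.72e-05).

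In all, 182 of 7636 genes had an interaction past the threshold (2.38%), 128 upward (1.68%) and 54 downward (0.707%). Of 15 naive and stem-like genes, 8 were upward and 0 downward, and Tcf7, Lef1, Slamf6, Il7r and Satb1 were called without each library in turn. Nkg7 and Klf2 were too. Gzmb (30.2, 55.9, 20.4 and 22.2 CPM below) had an interaction of -1.96 that was lost without Sed 1 (edgeR adjusted p = 0.534) or Ex 2 (0.376). Id2 (-1.15), Nr4a2 (-2.21) and Rgs1 (-1.75) were likewise lost without Sed 1 (0.539, 0.391 and 0.251) or Ex 2 (0.604, 0.159 and 0.0712). Without Sed 1 fewer genes passed, and not all of them were among the 182. Sed 2 held 29 cells below the threshold. Gzma stood at 26.9, 0, 4.08 and 2.22 CPM below, and its interaction did not pass (-2.24 ± 1.23).

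**Figure D4:**
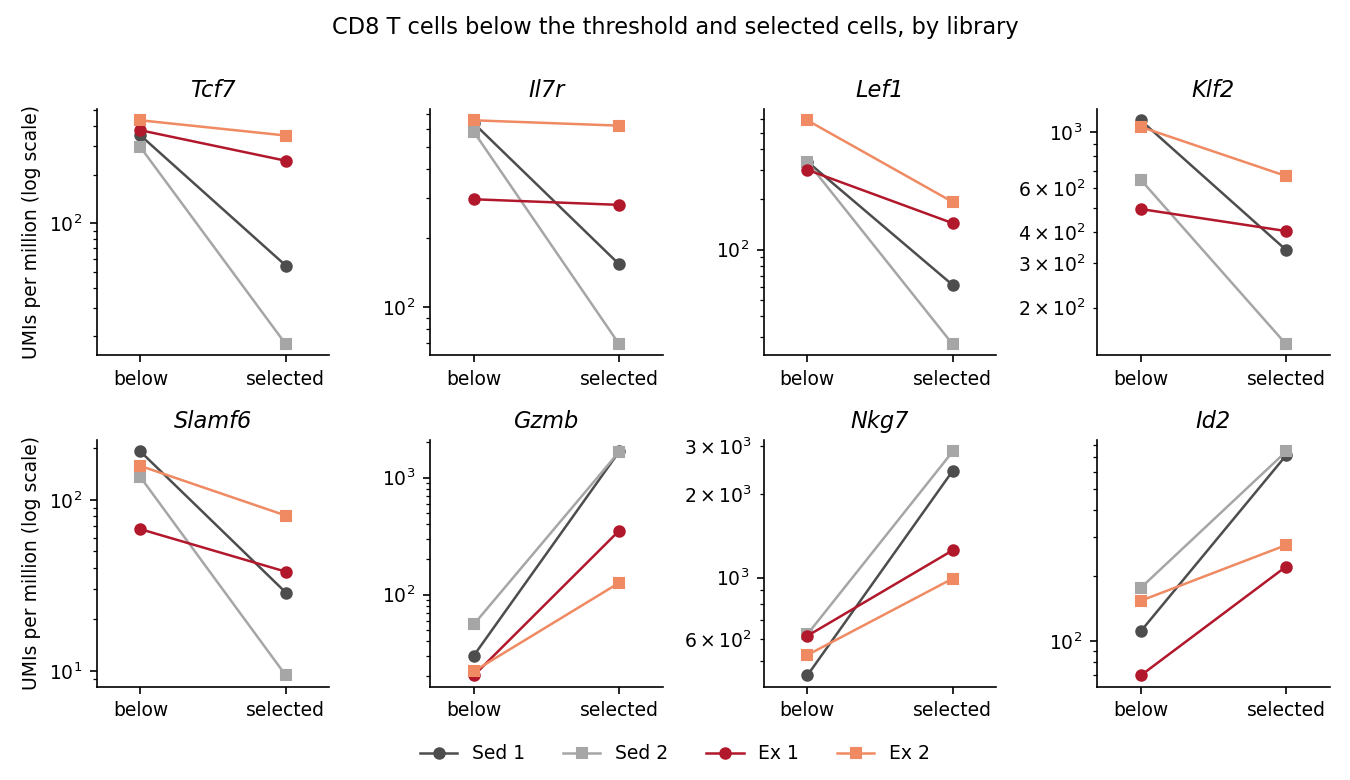
Level of 8 genes in CPM (log axis) in CD8 T cells below the threshold and in selected cells, with 1 line for each library. For Tcf7 the sedentary lines drop from 349 and 295 to 54.7 and 17.9, and the exercised lines from 376 and 433 to 243 and 348.

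Between selected cells and cells below the threshold, the rule itself sets the contrast, so the levels are only described. Of 6579 genes, 275 (4.18%) differed by the same call, 175 higher in the selected cells (2.66%) and 100 lower (1.52%), and nothing is read from these counts, which the choice of cells shapes. Igfbp4 stood at 19.1, 13.9, 15.2 and 13.8 CPM in the selected cells and at 175, 168, 137 and 153 CPM below. Dapl1, a gene of naive and memory CD8 T cells, stood at 66.3, 11.9, 79.1 and 86.1 CPM in the selected cells and at 235, 247, 372 and 344 CPM below. Both were lower in the selected cells of all 4 libraries, and Igfbp4 overlapped between the sedentary and exercised selected cells. Ifng gave 920 UMIs in the 1242 selected cells and 3 in the 300 cells below.

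Cells with a UMI of Pdcd1 or Tox were looked at apart, since both genes are linked to the exhausted state. A UMI of either does not show that a cell is exhausted, and this was not tested. After thinning to 1500 UMIs they made up 40.2% of the selected cells in Sed 1 and 43.2% in Sed 2 (109 and 187 cells), against 5.84% in Ex 1 and 11.2% in Ex 2 (18 and 19 cells). The groups did not overlap, and the difference was -33.2 percentage points. At that depth Pdcd1 was found in 18.5%, 18.2%, 1.62% and 2.94% of selected cells in Sed 1, Sed 2, Ex 1 and Ex 2. Tox was found in 28.4%, 33.7%, 4.55% and 10.0%. Pdcd1 and Tox are genes of the rule, so this share is a description with no test.

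Within libraries, selected cells with Pdcd1 or Tox were compared with those without in 1 fit over the 4 libraries. Both genes count towards the threshold of the rule, so the choice of cells shapes this contrast, and its calls only describe it. Of 6408 genes, 40 passed (0.624%), 8 higher (0.125%) and 32 lower (0.499%) in the cells with either gene. With cells split on all their UMIs rather than 1500, 72 of 6154 genes passed, 43 higher and 29 lower, and 10 of these were among the 40. Gzmb was higher by 0.80 (edgeR adjusted p = 0.0135) and Prf1 by 0.73 (0.0459). Crem, a repressor of cyclic AMP responses, was higher by 1.21, and Cblb, a ubiquitin ligase that restrains T cell activation, by 0.74. Sult2b1, a sulfotransferase, was higher by 1.42. S1pr1, Lef1, Klf2 and Klf3 were lower, by -1.57, -1.48, -1.19 and -1.29 on the log2 scale. Il1b, Thbs1, Fn1, Naaa and Mcemp1 were lower as well (-1.74, -1.72, -1.72, -1.77 and -1.67). So were Ly6c2 and Ngp of the monocyte and neutrophil list and Hp of the hepatocyte list. Of the 40 calls, 7 were marked as at the level of free RNA of other cells. The part of other cells in these falls was not tested. The calls rested on few cells. Without Sed 1, Sed 2, Ex 1 or Ex 2 in turn, 2, 10, 19 and 114 genes passed. Of these, 1, 8, 17 and 39 were among the 40.

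Exercise was also compared within the cells that held Pdcd1 or Tox. Tcf7 stood at 7.03 and 2.79 CPM in the sedentary cells and at 263 and 224 CPM in the exercised ones, a change of 5.54 ± 0.49 (edgeR adjusted p = 7.79e-05). Slamf6, a receptor that with TCF-1 marks progenitor exhausted cells, stood at 15.8, 5.57, 127 and 241 CPM (4.08, edgeR adjusted p = 0.00119). Gzmb stood at 2263, 2150, 565 and 318 CPM (-2.38, edgeR adjusted p = 0.00117) and Gzma at 12490, 9540, 487 and 1392 CPM (-3.63, edgeR adjusted p = 0.0351). For these 4 genes the groups did not overlap. Ifng (248, 244, 204 and 266 CPM), Ctla4 (91.4, 102, 77.9 and 129 CPM) and Lag3 (239, 217, 19.5 and 232 CPM) overlapped and did not pass (0.899, 0.973 and 0.606). In all, 97 of 4342 genes passed in these cells, on 18 and 19 exercised cells.

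In the selected cells without Pdcd1 and Tox, 241 of 7649 genes passed, 231 of them among the 617. Gzma changed by -4.96, Ifng by -1.43, Ctla4 by -2.23 and Nr4a2 by -2.45, and each passed. Lag3 stood at 97.3, 118, 3.21 and 7.65 CPM there and fell by 4.32 on the log2 scale (edgeR adjusted p = 0.000179). Tcf7 did not pass (2.51, edgeR adjusted p = 0.139). Whether an effect differed between cells with and without Pdcd1 or Tox was not tested.

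**Figure D5:**
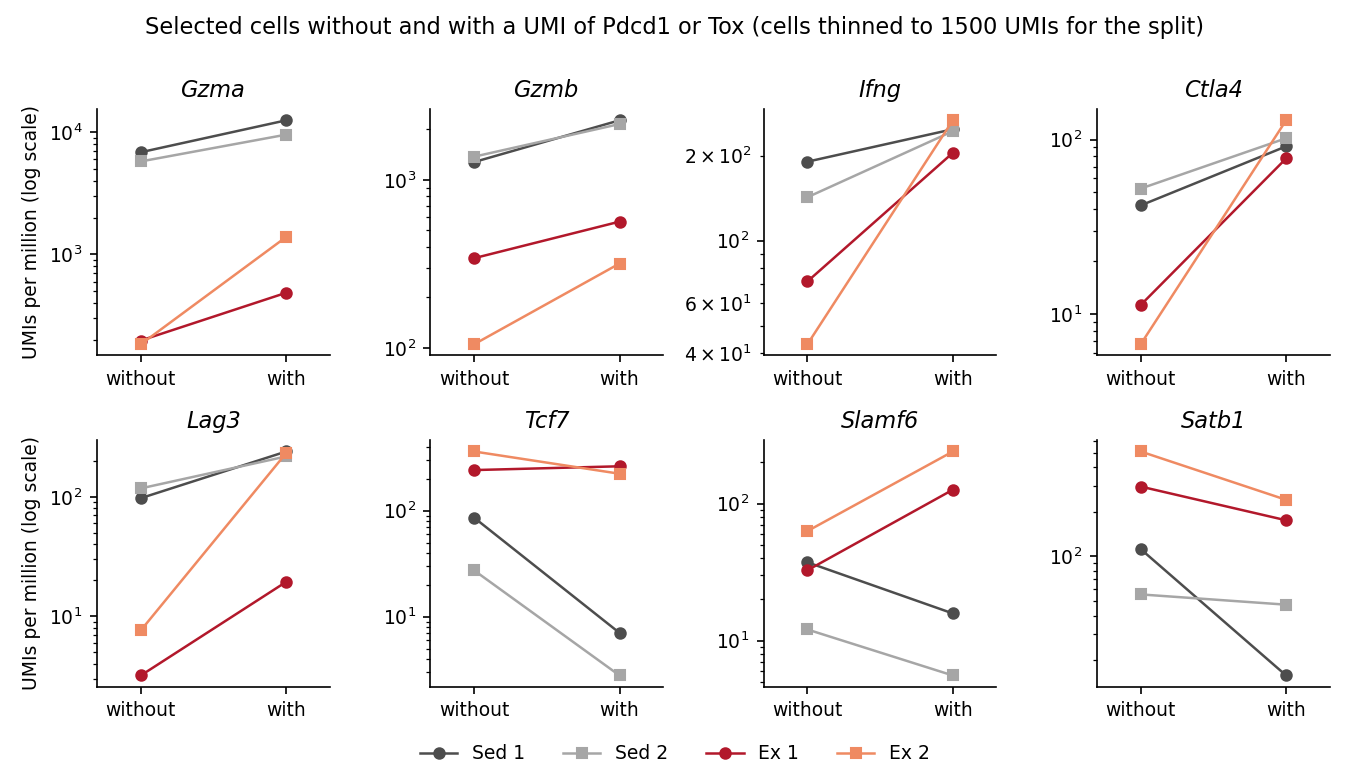
Level of 8 genes in CPM (log axis) in selected cells without and with a UMI of Pdcd1 or Tox, with 1 line for each library. In the cells with either gene, Tcf7 is at 7.03 and 2.79 in the sedentary and at 263 and 224 in the exercised libraries, while Ifng lies between 204 and 266 in all 4.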

How the data were processed

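Single-cell 3′ RNA counts of 4 libraries were analysed. The authors deposited 1 matrix of raw UMI counts (31053 genes by 51140 columns). It was made with Cell Ranger 7.0.0 on mm10 (GRCm38) per the submitters' processing notes, while per the file headers the version is 6.1.1. Barcodes named 28525 columns, and the 22615 columns without one were not used. A barcode's suffix gives its library, in the order of the deposited aggregation table. In windows of 1000 cells on either side of each suffix border, the largest shift in the levels of 200 genes lay within 8 cells of the border. Gene positions are GENCODE vM21 on GRCm38.

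The members and the 33 gene lists were chosen with earlier results of these data known. UMIs were summed per library over the selected cells, over CD8 T cells of the same rule with fewer than 2 UMIs of Ccl5, Gzmk, Pdcd1 and Tox, and over selected cells with and without Pdcd1 or Tox. Sums were tested with edgeR 4.0.16 (R 4.3.3; quasi-likelihood, robust, TMM scaling, default low-count filter), without the 15 genes of the rule. The exercise fit used the 2 groups alone. The interaction and the Pdcd1 or Tox fit kept the library as a term. The standard error is the log2 change over the root of F. Shares of selected cells used exact permutation tests. For cell-level shares each cell was thinned to 1500 UMIs, and shallower cells were left out. Intervals and floors (3 UMIs) cover counting error only. Doublets were not removed, since the automatic threshold of Scrublet (scanpy 1.11.5) marked at most 0.0236% of cells in 3 libraries. Removing the cells of highest score (20, 49, 15 and 6 selected ones) was an alternative. On simulated counts with known changes, the exercise fit recovered 33 of 100 genes with a 2-fold change and 99 of 100 with a 4-fold change. It called 4 among 8435 genes left as they were. The simulated counts had the spread that edgeR's trend gives for a gene's level, and only genes above 20 CPM on average were changed. Genes that vary more than the trend were not simulated, so these rates may not hold for them.

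Genes named in the text are those of the selection rule, called genes and abundant uncalled genes of the lists, a fixed set of CD8 T cell genes, and, in each comparison, the largest changes among calls whose groups lie apart and whose higher group reaches 20 CPM. Ribosomal, mitochondrial, predicted and receptor segment genes were counted but not named by size. The same holds for calls marked as at the level of free RNA of other cells, 38 of the 617 for exercise. Chil3, Wfdc21, Lcn2, Mmp8, Cd14 and Anxa1 were named after their values were seen, from the calls shared with the cells below the threshold. Alternatives were DESeq2 1.42.0, its size factors, no low-count filter, stricter cell filters, a threshold of 3 UMIs, thinning, doublet removal, omission of each library, and the replicate number as a block. Some genes that count in the lists are not reported here by name. The deviations of Sed 1 and Ex 1 from their group means had a correlation of -0.02 over 8676 genes. With 2 libraries per group this value cannot show whether same-numbered libraries were paired.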

Additional observations from a re-analysis of the deposited data

Results flagged for a closer look

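For 12 genes the exercise difference in the selected CD8 T cells and that in CD8 T cells below the threshold differed by the interaction term of edgeR's quasi-likelihood test, adjusted over all genes. They are those of largest interaction in each direction under the naming rule, and the values are on the log2 scale, selected minus below. As stated above, the choice of cells shapes this term.

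The interaction was upward for Hbb-bs (5.404), Tnfrsf26 (4.15), Tdrp (3.38), Tcf7 (2.79), Tnfsf8 (2.68) and Gpr183 (2.58). Tcf7 and Tdrp were called without each library in turn. Tnfrsf26, a decoy receptor of the TNF family, and Tnfsf8 were lost without Sed 1 (edgeR adjusted p = 0.614 and 0.166), and Gpr183 without Sed 2 (0.0694). Hbb-bs, a haemoglobin chain, stood at 1801 CPM in the selected cells of Ex 1 and at 3.44 to 17.8 CPM in those of the other libraries, and its interaction was lost without Ex 1 (0.878). In Ex 1, 5 cells held 98.9% of the haemoglobin UMIs.

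The interaction was downward for Lag3 (-3.90), Ccl3 (-3.83), Irf8 (-3.36), Ptms (-2.87), Ubash3b (-2.78) and Ptger4 (-2.71). All 6 were lost without Sed 1 (edgeR adjusted p = 0.588, 0.146, 0.0947, 0.486, 0.705 and 0.519), which leaves the 29 cells of Sed 2 as the sedentary cells below the threshold. Lag3, Ccl3 and Ptms were lost without Ex 1 as well (0.0908, 0.836 and 0.0905), Ubash3b without Ex 2 (0.074), and Ptger4, a prostaglandin receptor, without Sed 2 (0.0979) or Ex 2 (0.133). In the cells below the threshold Ccl3 stood at 75.5 CPM in Ex 1 and at 10.1, 31.9 and 4.44 CPM in Sed 1, Sed 2 and Ex 2.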

How the results depend on the processing

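Of 617 genes called for exercise, alternatives moved the count in both directions. DESeq2 called 275 (243 shared), the stricter cell filter (500 genes, 5% mitochondrial UMIs) 295, a fit of all genes whatever their counts 1034, and cells thinned to 1500 UMIs before the rule 318 of 4138. The replicate block called 244, and the labels do not say whether the numbers pair the libraries. Without Ccl5 in the rule 82 passed, in selected cells without Gzmk, Pdcd1 and Tox 24, with Pdcd1 or Tox 97, without them 241, and with no threshold 222. Without 1 library, 274 to 1086 passed (274 without Ex 2, 405 without Ex 1, 575 without Sed 2, 1086 without Sed 1). In such fits the lone library of a group is assumed to vary like the other group. The other alternatives lay within 1.5 times. Selected against below the threshold, 275 became 672 with no filter, 136 with thinned cells and 123 to 239 without 1 library. For Pdcd1 or Tox, 40 became 20 with DESeq2, 132 with no filter, 72 with the split on all UMIs and 2 to 114 without 1 library. The interaction's 182 became 288 without doublets, 83 with thinned cells and 40 to 162 without 1 library. The causes were not tested.

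The difference in the share of CD8 T cells was -20.84 to 1.595 percentage points without 1 library, that of all cells -1.79 to 0.7215 (0.0215 without Ex 2), that of T cells -19.04 to -7.87, and that of Pdcd1 or Tox cells -35.86 to -30.52. Among called genes, signs changed for Ctla4 (0.34) and Tnfrsf4 (0.73) without Ccl5 in the rule, for both in cells with Pdcd1 or Tox (0.053 and 0.39), for Naaa with the split on all UMIs (0.0044), and, in the interaction, for Gzmb (0.24) and Id2 (0.0055) with thinned cells and Dnase1l3 (1.22 without Ex 1, -10.7 without Sed 1). Slamf6 and Klf2, not called over all selected cells, stood at -0.36 and -0.023 in those without Gzmk, Pdcd1 and Tox. Exercise changes of single genes kept their direction and side of the threshold in 1662 gene and setting pairs, lost the call in 448, gained it in 58 and reversed in 4. The 29 cells of Sed 2 below the threshold, with 125330 UMIs, and the 18 and 19 exercised cells with Pdcd1 or Tox limit the depth of those comparisons.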

Other observations

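T cell receptor segments were read in a part of the selected cells only, since 3′ libraries rarely reach them. Among selected cells with any Trbv UMI, Trbv2 was present in 20 of 39 cells of Sed 2, against 5 of 40 for Sed 1, 4 of 40 for Ex 1 and 3 of 24 for Ex 2. The Sed 2 share was 51.3% (95% exact Clopper-Pearson interval 34.8% to 67.6%), against 12.5%, 10.0% and 12.5% in the other libraries. Trav6-1 was present in 13 of 45 cells with any Trav UMI in Sed 2 (28.9%, interval 16.4% to 44.3%) and in 0 of 21, 0 of 49 and 0 of 29 in Sed 1, Ex 1 and Ex 2. Cells with both segments numbered 0 in every library. In Sed 2 only 39 and 45 of the 483 selected cells held any Trbv or Trav UMI. This 0 therefore cannot show that the segments lie in different cells. Trbv13-1 was present in 9 of 40 cells in Sed 1 (22.5%, interval 10.8% to 38.5%) and in 0 of 39 in Sed 2. These segments were the most abundant over the 4 libraries, and the values have no replicate check within a library.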
